A study of Homo sapiens with 4 samples.

Results

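The 10 genes described here are receptors, ligands, a modifying enzyme, the DNA-binding factor and direct targets of the Notch pathway. They are NOTCH1, NOTCH2, NOTCH3, JAG1, JAG2, LFNG, RBPJ, HES1, HEY1 and NRARP, chosen by symbol, and every probe whose platform annotation names one of them was taken. That gave 20 probes of the 47323 on the array, for 10 of 20046 annotated gene symbols. The study transfected MCFDCIS cells, a breast cancer line described as basal-subtype, with siRNA against Slug or with a control siRNA, and asked what lowering Slug does to gene expression. Both groups came from this 1 line and were lysed 72 hours after transfection. Each had 2 biological replicates, hybridised as 4 arrays of 1 Illumina chip. Whether the replicates came from separate days or stocks is not in the labels, so every p-value reflects only how far these arrays differ among themselves.

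Notch receptors are single-pass membrane proteins activated by Jagged or Delta ligands on a neighbouring cell. Ligand binding lets ADAM proteases and then the gamma-secretase complex cut the receptor, and the freed intracellular domain enters the nucleus, binds RBPJ and turns on targets such as the HES and HEY repressor genes. In breast and other stratified or bilayered epithelia the pathway takes part in the choice between basal or progenitor and luminal or differentiated states, and Slug, the SNAI2 protein, is a repressor found mainly in basal cells.

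The arrays were alike in how much they detected. Between 39.8% and 40.8% of probes had a detection p under 0.05, the rank of a probe among the negative controls of its array that is called above background here. The dimmest such probe read 127 and 129 intensity units on the Slug siRNA arrays, against 124 and 126 on the control arrays. SNAI2, the siRNA target, had 2 probes. The brighter had log2 intensities of 8.57 and 8.51 with Slug siRNA, against 8.95 and 9.01 with control siRNA (log2 fold change -0.44, limma adjusted p = 0.316), and the other gave -0.37, so the mRNA of the target was lower on both Slug siRNA arrays by both probes but not past the threshold. The basal markers KRT5, KRT14 and EGFR were above background on all 4 arrays, as were the luminal KRT8, KRT18, FOXA1 and GATA3, while ESR1 and PGR were on none. Of the 5 fibroblast markers, 0 were above background on all arrays, and PECAM1 and CD68 were the only endothelial and leukocyte markers that were. The intensities of the brightest probes of the 6 luminal markers summed to 6976 and 8758 with Slug siRNA, against 4319.8 and 4559.8 with control siRNA. Those of the 3 basal markers with a probe summed to 5564 and 5442 with Slug siRNA, against 4833 and 4826 with control siRNA. Those of the 3 endothelial markers summed to 654 and 538 with Slug siRNA, against 858 and 713 with control siRNA. Each of these 3 sums is mostly 1 gene. KRT8 read 4845 and 6322 units with Slug siRNA, against 2657 and 2821 with control siRNA, and KRT5 5038 and 4861, against 4319 and 4272. PECAM1 read 451 and 332 units with Slug siRNA, against 647 and 501 with control siRNA. KRT14 and EGFR, the other basal markers, had log2 fold changes of -0.30 and 0.05. The luminal shift was not in KRT8 alone. By their brightest probes, FOXA1, KRT18 and GATA3 had log2 fold changes of 0.56, 0.43 and 0.12 (limma adjusted p = 0.245, 0.417 and 0.828). A second KRT18 probe gave 0.08 with overlapping groups. The part of these shifts in the results below was not tested.

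After Slug siRNA, the target gene HEY1 and the fringe enzyme gene LFNG had the largest differences among the 10 genes, 1.78-fold and 1.68-fold higher. The receptor gene NOTCH3 was next, and the other receptors, both Jagged genes, RBPJ and HES1 had log2 fold changes between -0.27 and 0.11. NRARP was not above background on any array. None of these differences passed limma's adjusted threshold of 0.05 in the fit with group as the only term. Of the 20 probes, 12 were above background on at least 2 arrays and were tested, and they stand for 9 of the 10 genes, each represented by its brightest tested probe. Of these 9 genes, 0 passed, where 0.0669% of all 19446 tested probes (13 of them) and 0.116% of 11200 genes did. At an unadjusted limma p under 0.05, 2 of the 9, LFNG and HEY1, were higher and 0 lower, against 6.18% of all genes higher and 6.87% lower. Both arrays of 1 group lay above both of the other for 4 of the 9, with 3 higher and 1 lower, against 23.6% and 21.5% of all genes. The share of genes without overlap, 4 of 9, is thus close to the 45.1% found over all genes in either direction. The median log2 fold change of the 9 genes was -0.06, against 0.01 over all genes. In bulk RNA, fewer cells that express a gene and less RNA per cell cannot be told apart.

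**Figure D1:**
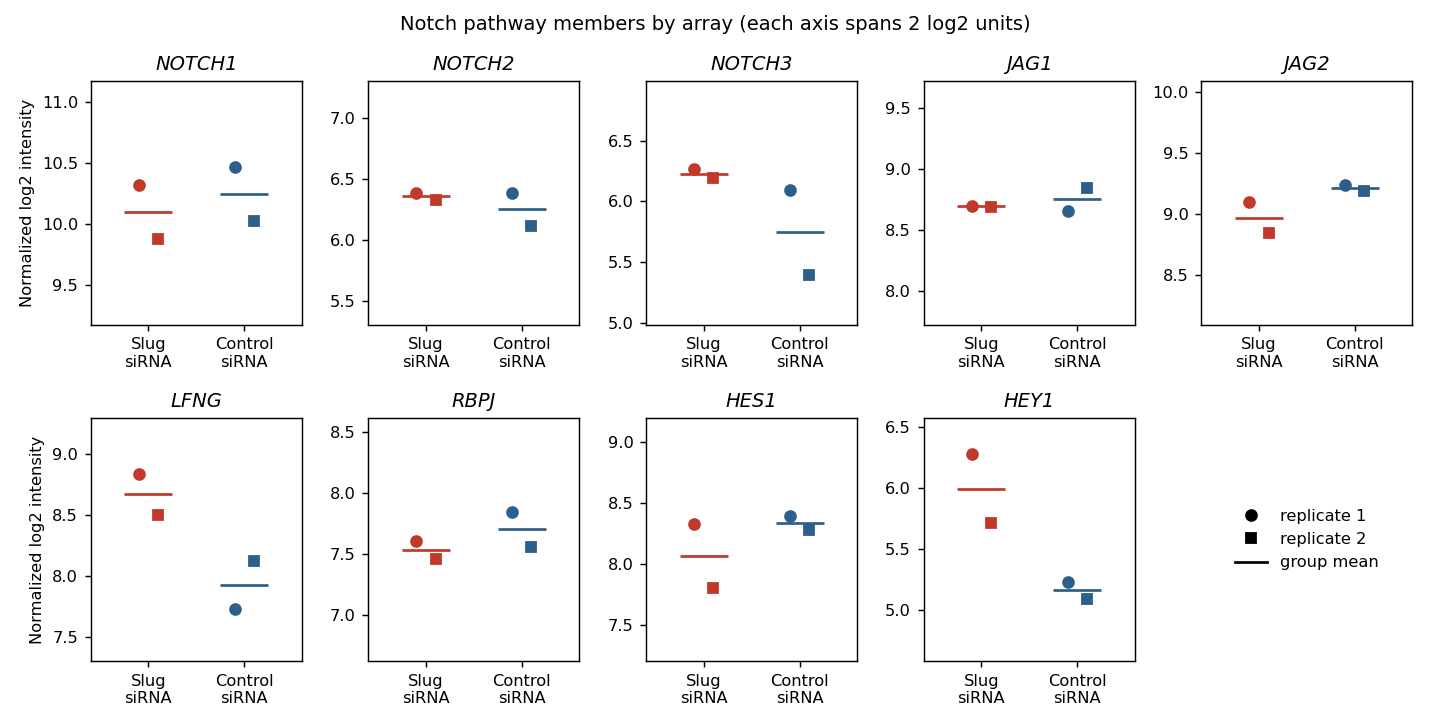
Normalized log2 intensity (y axis, 2 log2 units in each panel) of the brightest probe of 9 member genes on the Slug siRNA (left, red) and control siRNA (right, blue) arrays, with circles for replicate 1, squares for replicate 2 and lines for the group means. The groups do not overlap for NOTCH3, LFNG and HEY1, with Slug siRNA higher, or for JAG2, with Slug siRNA lower.

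NOTCH1, the receptor best known from mammary and skin epithelium, was read by 1 probe with deposited intensities of 1372 and 1069 units with Slug siRNA, against 1485 and 1113 units with control siRNA. On both sides the replicate 1 array was the higher, and the groups overlapped. The normalized log2 intensity averaged 10.10 ± 0.32 with Slug siRNA and 10.25 ± 0.31 with control siRNA (SD, n = 2 each). This is a log2 fold change of -0.15 with a 95% interval from -0.69 to 0.39 (SE 0.23, limma adjusted p = 0.864). NOTCH1 thus differed more between the arrays of 1 group than between the groups. Taken by replicate number, the difference was -0.146 in replicate 1 and -0.150 in replicate 2. Whether these numbers pair the arrays is not in the labels. With the replicate number as a block, the limma adjusted p was 0.585.

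NOTCH2 had 3 probes, all annotated to 1 transcript, and only 1 was above background. That probe had intensities of 183 and 180.0 units with Slug siRNA, against 177 and 164 units with control siRNA. Before normalization both Slug siRNA arrays were the higher, and after it they overlapped with the controls at log2 intensities of 6.38 and 6.33, against 6.39 and 6.12. The difference on the log2 scale was 0.11 with an SE of 0.17 (limma adjusted p = 0.875). The other 2 probes lay between 98.2 and 119 units on all arrays, at the level of the negative controls. The human genome holds near-identical partial copies of this receptor, the NOTCH2NL genes, so which of them the probe reads is uncertain.

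NOTCH3, a receptor also known from mural cells and from luminal progenitors of the breast, was dim. Its 1 probe read 176 and 173 units with Slug siRNA, against 162 and 138 units with control siRNA. Both Slug siRNA arrays lay above both controls, and replicate 2 of the control was the one that stood apart. On the log2 scale NOTCH3 averaged 6.23 ± 0.06 with Slug siRNA and 5.75 ± 0.50 with control siRNA (SD, n = 2 each). The difference between these means was 0.48 with an SE of 0.24 (limma adjusted p = 0.477). It was 0.13 without control siRNA replicate 2 and 0.83 without control siRNA replicate 1, and 5.34% of all genes had a value at least as high as 0.48. Without background correction the value was 0.18. The probe's bead error reached 6.13% of its signal.

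JAG1, a Jagged ligand, had the smallest difference of the 9 tested genes. Its 1 probe read 517 and 527 units with Slug siRNA, against 489 and 546 units with control siRNA, so both Slug siRNA arrays fell between the control arrays. The log2 intensity averaged 8.69 ± 0.01 with Slug siRNA and 8.75 ± 0.13 with control siRNA (SD, n = 2 each). With a log2 fold change of -0.06 (SE 0.16, limma adjusted p = 0.938), its 95% interval ran from -0.44 to 0.33.

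JAG2, the second Jagged ligand, had 3 probes for 2 annotated transcripts. The brightest read 650 and 575 units with Slug siRNA, against 690 and 665 units with control siRNA. It was the only member whose brightest probe was lower on both Slug siRNA arrays than on either control. The log2 fold change of -0.24 had an SE of 0.17 (limma adjusted p = 0.626), and its 95% interval of -0.64 to 0.16 included 0. The second probe pointed the same way, at -0.16 (adjusted p = 0.800), with overlapping groups (log2 intensities of 8.06 and 7.79 with Slug siRNA, against 8.24 and 7.94 with control siRNA). The third was not above background on any array.

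**Figure D2:**
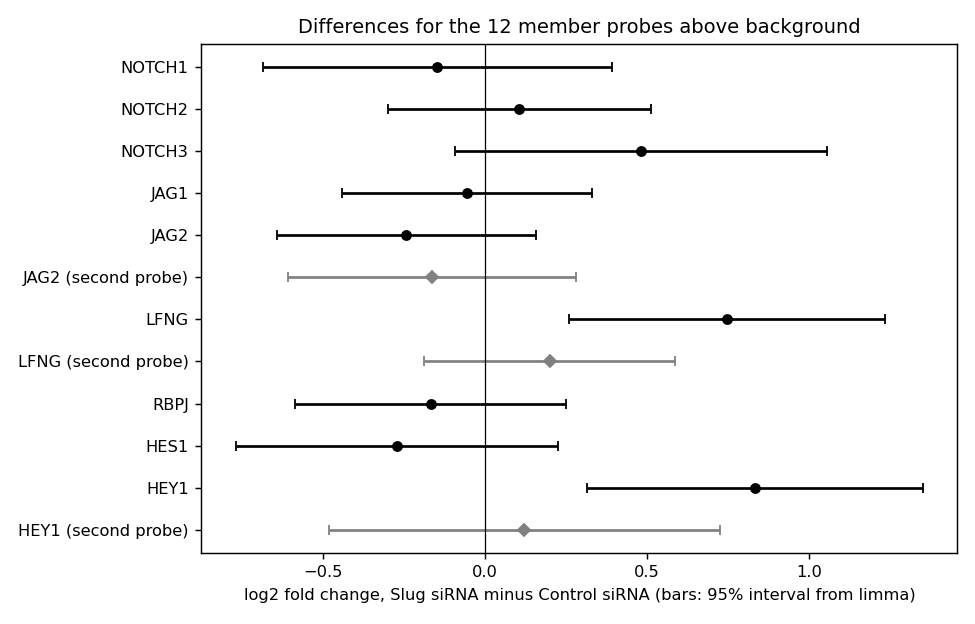
Log2 fold change (x axis, Slug siRNA minus control siRNA) of the 12 tested member probes, with 95% intervals from limma, black for the brightest probe of a gene and grey for a second one. Only the intervals of LFNG (0.26 to 1.23) and HEY1 (0.31 to 1.35) leave out 0 before adjustment, and the second probes of both genes (0.20 and 0.12) have intervals that include it.

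LFNG encodes lunatic fringe, a Golgi enzyme that lengthens sugar chains on Notch receptors and so tunes which ligands they answer. Its brightest probe read 561 and 475 units with Slug siRNA, against 305 and 368 units with control siRNA. Both Slug siRNA arrays were above both controls. The log2 intensity averaged 8.67 ± 0.24 with Slug siRNA and 7.93 ± 0.27 with control siRNA (SD, n = 2 each). The log2 fold change of LFNG was thus 0.75 with an SE of 0.21 (limma adjusted p = 0.219), and 1.44% of all genes had a value at least as high. The second LFNG probe, annotated to another transcript, was near background, with 134 and 140 units with Slug siRNA, against 125 and 132 units with control siRNA. Its groups did not overlap either, and its value was 0.20 with an SE of 0.16 (limma adjusted p = 0.693). The third probe was not above background on any array, so no difference can be given for it, and its normalized groups overlapped. The LFNG difference thus rests on 1 probe well clear of background. With the mean over the 2 tested probes in place of the brightest, the value of LFNG was 0.47 (limma adjusted p = 0.262).

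**Figure D3:**
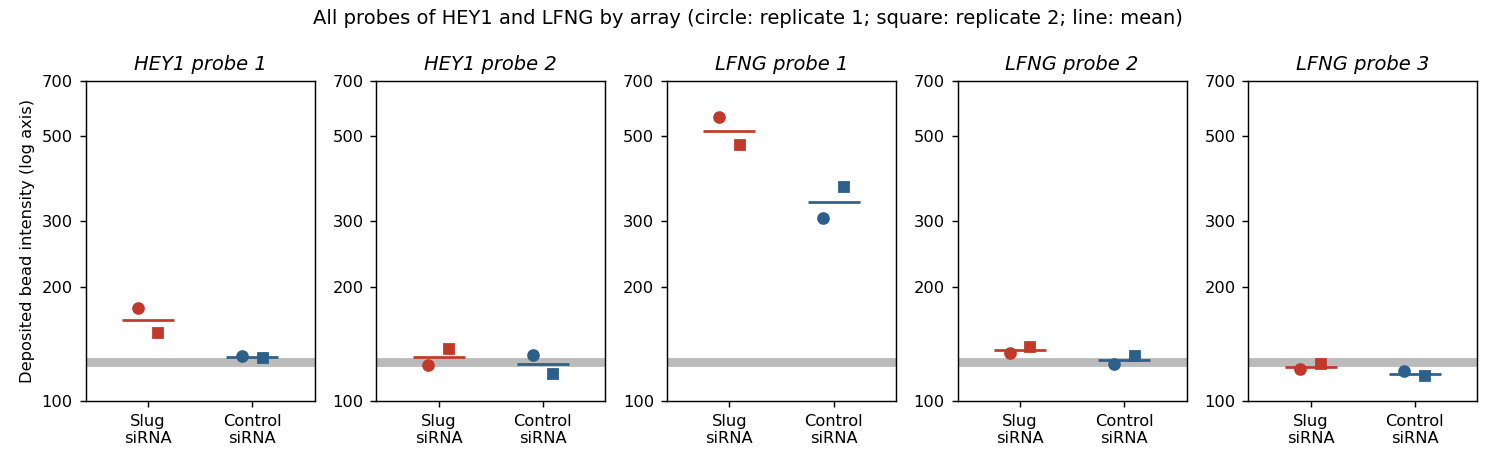
Deposited bead intensity (y axis, log scale) of both HEY1 probes and all 3 LFNG probes on the Slug siRNA (left, red) and control siRNA (right, blue) arrays, with circles for replicate 1, squares for replicate 2 and lines for means. The grey band, 124 to 129 units, spans the dimmest signal called above background on each array, and only the first LFNG probe stands far above it, while HEY1 probe 1 reads 177 and 152 units with Slug siRNA, against 131 and 130.2 units with control siRNA.

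RBPJ, the factor through which cleaved Notch receptors reach DNA, had 3 probes for 3 annotated transcripts, of which 1 was above background. It read 296 and 280.03 units with Slug siRNA, against 321 and 279 units with control siRNA. The groups overlapped, and replicate 1 was the higher array in both. RBPJ differed by -0.17 on the log2 scale, with a 95% interval from -0.59 to 0.25 (SE 0.18, limma adjusted p = 0.778).

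HES1, the repressor gene most often used as a readout of Notch activity, had 1 probe. It read 422 and 327 units with Slug siRNA, against 427 and 400.2 units with control siRNA. One Slug siRNA array was level with the controls and the other, replicate 2, was the lowest of the 4. The log2 intensity averaged 8.06 ± 0.37 with Slug siRNA and 8.34 ± 0.08 with control siRNA (SD, n = 2 each), a difference of -0.27 with an SE of 0.21 (limma adjusted p = 0.667). Without Slug siRNA replicate 2 it was -0.01, and without Slug siRNA replicate 1 it was -0.54.

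HEY1, a repressor of the same basic helix-loop-helix class and a direct Notch target in many tissues, had the largest value of the 10 genes. Its brighter probe read 177 and 152 units with Slug siRNA, against 131 and 130.2 units with control siRNA, which was just above background with control siRNA (detection p of 0.013 and 0.027). The log2 intensities were 6.28 and 5.71 with Slug siRNA, against 5.24 and 5.09 with control siRNA, so both Slug siRNA arrays were higher. HEY1 thus had a log2 fold change of 0.83 with an SE of 0.22 (limma adjusted p = 0.199), and 1.06% of all genes had a value at least as high. The second probe, annotated to the same transcript, did not show this. It read 125 and 137 units with Slug siRNA, against 132 and 118 units with control siRNA, and was above background on 1 array of each group, with a log2 fold change of 0.12 (SE 0.26, limma adjusted p = 0.910). Because the brighter probe is dim, its value depends on how background is handled. It was 0.28 without background correction, 0.49 with an offset of 50 and 1.27 with the authors' normalized values, positive in each. The mean over both probes was also positive, at 0.48. With the replicate number as a block, HEY1 passed the threshold (0.83, SE 0.16, limma adjusted p = 0.048). In that fit 549 of all 19446 tested probes passed, against 13 in the fit with group as the only term. That block leaves 1 residual degree of freedom, and the labels tie no replicate number to a day or stock. Without Slug siRNA replicate 1 the value of the brighter probe was 0.55.

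The 3 genes whose pattern over the 4 arrays was most like that of HEY1, by Euclidean distance of log2 intensities centred on each gene's mean, were SV2B, a synaptic vesicle protein gene (distance 0.10), TP53INP1, a p53-inducible gene (0.10), and PPT2, a lysosomal thioesterase gene (0.11), out of 11200 genes. The log2 fold changes were 0.91 for TP53INP1 and 0.87 for PPT2 (limma adjusted p = 0.199 and 0.164). SV2B was not above background on either control array, so it was tested only through its Slug siRNA arrays. Set against the dimmest signal above background, the mean of those arrays gave a bound of 1.49-fold higher with Slug siRNA. The mean log2 intensity of SV2B was 5.50 with Slug siRNA and 4.66 with control siRNA (limma adjusted p = 0.177). These genes were picked for their likeness to HEY1 on the same arrays, so log2 fold changes near that of HEY1 follow from the choice. With 4 arrays many genes can share a pattern, and this is a description only.

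NRARP encodes a small ankyrin repeat protein that is induced by Notch and dampens it. Its 2 probes lay between 106 and 120 units, with detection p of 0.144 or higher on every array, so no difference can be given for it, and it was not detectable at this signal.

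Sequence in front of the transcription start was examined for 2 short motifs, the RBPJ core TGGGAA and the Slug E-box CAGGTG, on both strands (TTCCCA and CACCTG when read from the other strand). RefSeq promoter windows (GRCh38.p14, 250 bases before to 50 after a start) were examined for 9 of the 10 genes, with 14 windows in all. The search of member windows skipped 1 chromosome, the one that carries HEY1. Its windows stay in the share over all windows. No HEY1 window was examined. The RBPJ core was found in windows of 3 genes, HES1, LFNG and RBPJ, and in 4 of 14 windows, against 24.0% of all 35116 windows in the table. The E-box was found in windows of 4 genes, JAG2, LFNG, NRARP and RBPJ, and also in 4 of 14 windows, against 20.6% of all. The 250 bases before the start are shown for HES1, the usual Notch readout, LFNG, the member with the largest value among those with a window, and JAG2, the member that was lower on both arrays. Capitals mark the motif matches, which do not overlap each other.
HES1, chr3:194135898-194136147, plus strand: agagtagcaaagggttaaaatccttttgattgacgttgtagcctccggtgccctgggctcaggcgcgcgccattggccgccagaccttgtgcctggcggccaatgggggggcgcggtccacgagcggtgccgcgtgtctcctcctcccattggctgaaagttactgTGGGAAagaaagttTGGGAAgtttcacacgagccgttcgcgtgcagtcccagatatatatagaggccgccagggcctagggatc
LFNG, chr7:2517613-2517862, plus strand: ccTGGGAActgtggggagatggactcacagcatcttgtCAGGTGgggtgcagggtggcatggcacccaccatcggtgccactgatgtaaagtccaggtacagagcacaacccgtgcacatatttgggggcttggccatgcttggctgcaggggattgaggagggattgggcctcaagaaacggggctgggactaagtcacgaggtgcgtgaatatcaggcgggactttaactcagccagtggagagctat
JAG2, chr14:105168777-105169026, minus strand: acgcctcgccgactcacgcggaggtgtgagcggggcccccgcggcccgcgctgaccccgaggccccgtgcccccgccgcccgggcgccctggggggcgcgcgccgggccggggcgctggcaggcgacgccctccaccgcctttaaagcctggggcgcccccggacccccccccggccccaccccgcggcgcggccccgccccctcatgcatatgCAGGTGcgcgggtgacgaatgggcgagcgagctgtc
HES1 held the RBPJ core at 2 places, with first letters at positions -84 and -70 counted from the start. In this LFNG window, which belongs to one of its 2 annotated starts, the RBPJ core began at -248 and the E-box at -212, and the window of the other start held 1 RBPJ core and no E-box. The JAG2 window held the E-box at -36 and no RBPJ core. Of the 4 genes with the E-box letters, LFNG, JAG2 and RBPJ had log2 fold changes after Slug siRNA of 0.75, -0.24 and -0.17. The remaining gene, NRARP, was not above background. Whether the letters bear on these values was not tested. A match of 6 letters is a description of the sequence and not a binding site.

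The rest of the pathway was described from a list of 62 further genes by role. Probes named 58 of them, and 44 were above background on at least 2 arrays. Of these 44, 0 passed limma's adjusted threshold. At an unadjusted limma p under 0.05, 2 were higher and 5 lower, against the 6.18% and 6.87% of all genes given above. Of these 5, DTX1 was not above background with Slug siRNA and was tested only through its control arrays, and 4 were measured in both groups. Their log2 fold changes ran from -0.65 to 0.56 with a median of -0.01, and 22 were positive and 22 negative. The groups did not overlap for 7 higher and 11 lower genes, against 23.6% and 21.5% of all genes.

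Among other receptors and ligands, 1 of 4 measured genes was positive and 3 negative. DNER, which encodes a Delta-like membrane protein described as a Notch ligand, had log2 intensities of 7.02 and 7.38 with Slug siRNA, against 7.55 and 8.15 with control siRNA (log2 fold change -0.65, limma adjusted p = 0.332). DLL1, a Delta ligand, had 7.62 and 7.11 with Slug siRNA, against 6.99 and 6.62 with control siRNA (0.56, adjusted p = 0.382). The groups did not overlap for either gene. MFNG, the manic fringe gene and a paralog of LFNG, had 5.78 and 5.40 with Slug siRNA, against 6.49 and 5.94 with control siRNA. Its log2 fold change of -0.62 (limma adjusted p = 0.339) had the opposite sign to that of LFNG. The 1 MFNG probe was dim, at 153 and 141 units with Slug siRNA, against 183 and 156 units with control siRNA. POGLUT1, which adds glucose to Notch receptors, stood at 0.17, and its second probe at -0.16.

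**Figure D4:**
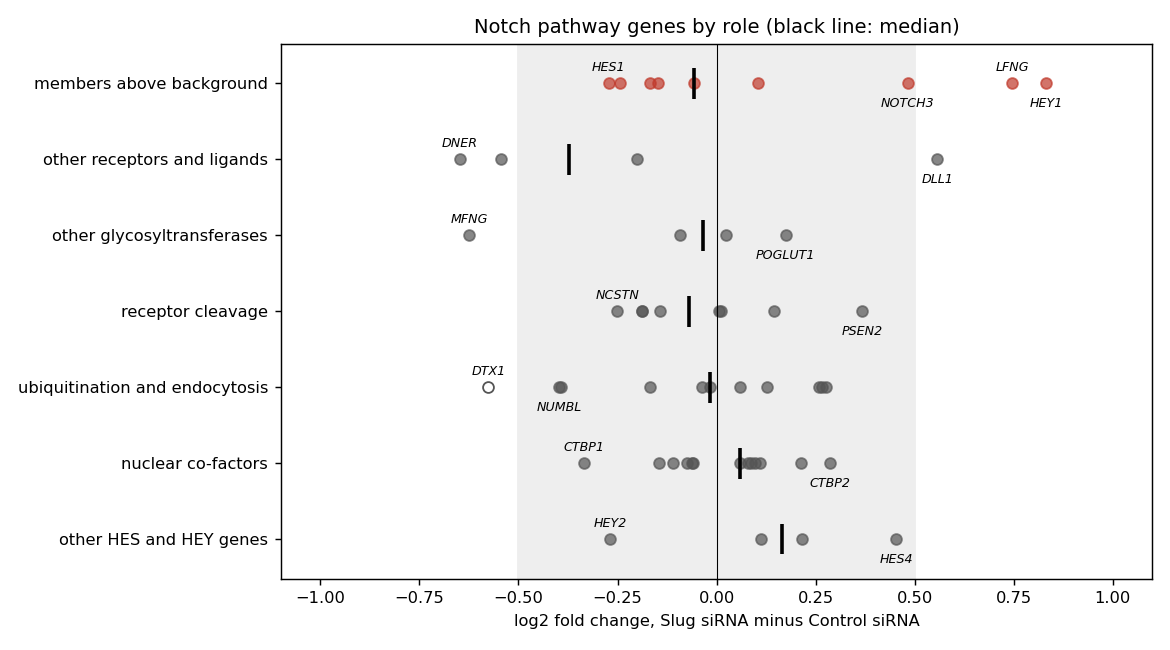
Log2 fold change (x axis, Slug siRNA minus control siRNA) of the 9 tested member genes (top, red) and of 44 other Notch pathway genes by role (grey), 1 point a gene, with black lines for medians and a grey band that holds 90% of all genes tested. HEY1 (0.83), LFNG (0.75) and DLL1 (0.56) lie outside the band on the right, and DNER (-0.65), MFNG (-0.62) and DLK2 (-0.54) on the left. The open point, DTX1, was not above background with Slug siRNA, so its place is not measured and only a bound holds for it.

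Of 8 measured genes for receptor cleavage, 4 were positive and 4 negative, with values from -0.25 to 0.37. The groups did not overlap for 1 higher and 2 lower ones, against 23.6% and 21.5% of all genes. PSEN2, a catalytic subunit of gamma-secretase, had log2 intensities of 9.13 and 9.14 with Slug siRNA, against 8.72 and 8.81 with control siRNA. Its groups did not overlap, and its 2 probes gave 0.37 and 0.35 (limma adjusted p = 0.404 and 0.451). NCSTN, the nicastrin subunit of the same complex, stood at -0.25 (adjusted p = 0.730) with overlapping groups.

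Of 11 measured genes of ubiquitination and endocytosis, 5 were positive and 6 negative. DTX1, a deltex ubiquitin ligase that binds Notch, was not above background on either Slug siRNA array, so it entered the test only through its control arrays. Set against the dimmest signal above background, the mean of its control arrays gave a bound of 1.31-fold lower with Slug siRNA. The control arrays stood at log2 intensities of 4.99 and 5.67, so this bound rests mostly on 1 of them. The mean log2 intensity of DTX1 was 4.76 with Slug siRNA and 5.33 with control siRNA (limma adjusted p = 0.385). NUMBL, a relative of the Notch inhibitor NUMB, stood at -0.40 (adjusted p = 0.591) with overlapping groups. The 13 nuclear co-factors had a median of 0.06, and the largest values there were -0.33 for CTBP1 and 0.29 for CTBP2, a pair of co-repressors, whose further probes gave -0.39 and -0.05 for CTBP1 and -0.20 for CTBP2. DLK2 (-0.54, limma adjusted p = 0.303) and DTX3L (-0.39, adjusted p = 0.370), named after their values were seen, were the other genes among the 5 with a lower value at an unadjusted p under 0.05, beside DNER, MFNG and DTX1. A second DLK2 probe gave 0.10, and another was not above background with Slug siRNA and was at least 1.05-fold lower there, a bound close to no difference.

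Further HES and HEY genes had 3 positive values and 1 negative one. HES4, a human HES gene, had log2 intensities of 10.81 and 10.83 with Slug siRNA, against 10.26 and 10.47 with control siRNA (log2 fold change 0.45, SE 0.17, limma adjusted p = 0.323). Both Slug siRNA arrays were higher and close together. HEY2, the nearest relative of HEY1, had 6.46 and 5.92 with Slug siRNA, against 6.72 and 6.19 with control siRNA, a log2 fold change of -0.27 (adjusted p = 0.741) with overlapping groups. Genes of the HES and HEY families thus had values on both sides of 0, from -0.27 for HES1 to 0.83 for HEY1. Of the 6 measured ones, 0 passed the adjusted threshold.

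**Figure D5:**
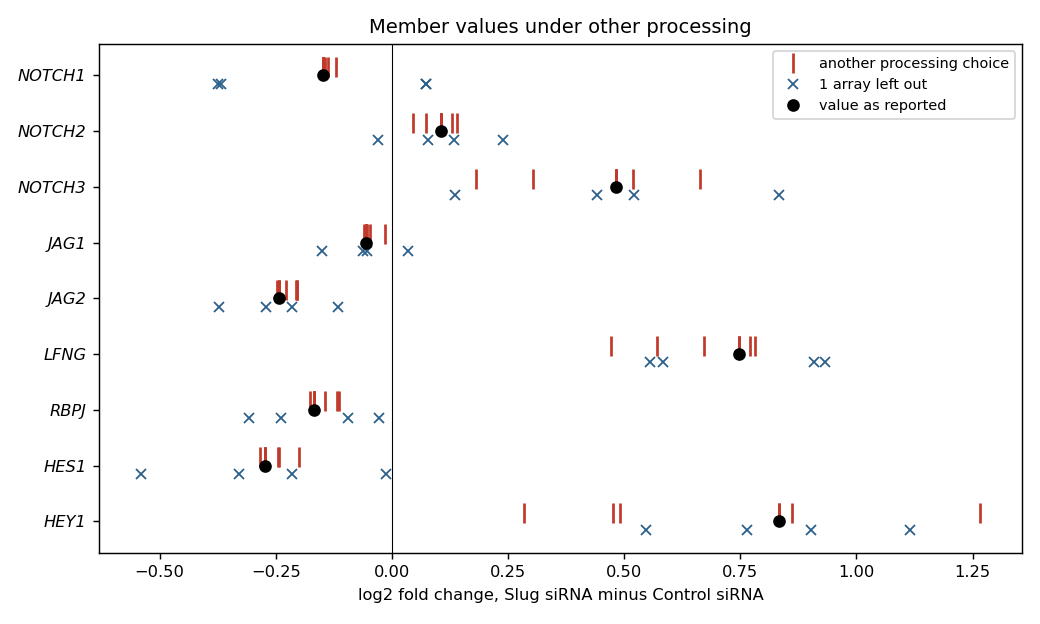
Log2 fold change (x axis, Slug siRNA minus control siRNA) of the 9 tested member genes as reported (black), under other processing choices (red bars) and with 1 array left out (blue crosses). HEY1 spans 0.28 to 1.27 and LFNG 0.47 to 0.93, and the crosses of NOTCH1, NOTCH2 and JAG1 fall on both sides of 0.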

How the data were processed

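Per the labels' protocols, total RNA was column-purified and amplified with a biotin-labelling kit for Illumina arrays. The authors deposited mean bead intensities per probe, which per the file headers are not normalized, with a detection p-value, the standard error over beads and the count of beads behind each mean. They also deposited normalized intensities, used as an alternative only; the method behind these is not given in the sources here. A further 8 columns of per-sample values were not used. Neither array software nor genome build is named in the sources.

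Intensities were processed in R 4.3.3 with limma 3.58.1 by nec (normal-exponential background correction from detection p, offset 16), quantile normalization and log2. Probes with a detection p under 0.05 on at least 2 of 4 arrays were tested (lmFit and eBayes, group as the only term, two-sided, 2 residual and 5.11 prior degrees of freedom), with Benjamini-Hochberg adjustment over all 19446. The brightest tested probe stands for a gene. Symbols came from the platform annotation. All 10 member genes matched a current RefSeq gene. Fold changes of dim probes are understated, since the offset stays in the signal. An exact permutation test of 2 against 2 arrays cannot give a p below 0.333. Bounds are set against the dimmest probe above background. The fit was tested on simulated data with independent noise on each array, a setting that holds no deviation shared by replicate number. The number of arrays limits the precision. Besides all members and SNAI2, the rule for naming genes took the 2 pathway genes with the largest absolute change in each role, where 0 passed the threshold, and the 3 genes nearest to the member with the largest change. Members and lists were chosen with earlier results of these data known. Figures were drawn with matplotlib 3.10.9.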

Additional observations from a re-analysis of the deposited data

How the results depend on the processing

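Over 12 alternatives, the count of member genes past limma's adjusted threshold stayed at 0 in all but 1, the replicate block, where it was 1, and that of the other pathway genes stayed at 0. The count over all probes, 13 as reported, was 226 without background correction, 328 with an offset of 50, 42 with median scaling, 0 with the authors' normalized values, 0 with no filter on dim probes, 189 with a detection p under 0.01 on all 4 arrays and 549 with the replicate number as a block. With 1 array left out it ranged from 0 to 18. The cause of these shifts was not tested. The labels tie no replicate number to a day or stock. The replicate 1 deviations of both groups correlated at r = 0.36 across probes, and with the replicate block HEY1 passed (0.83, SE 0.16, limma adjusted p = 0.048), on 1 residual degree of freedom. HEY1 had no value with a detection p under 0.01 on all 4 arrays, which its control arrays do not meet. NOTCH3, JAG2, LFNG, RBPJ, HES1 and HEY1 kept their sign in every alternative that gave a value. With 1 array left out the log2 fold change of NOTCH1 ranged from -0.374 to 0.074, positive when control siRNA replicate 1 or Slug siRNA replicate 2 was left out. That of NOTCH2 ranged from -0.029 to 0.239 and that of JAG1 from -0.151 to 0.035, each with the opposite sign to its reported value when control siRNA replicate 2 was left out. NRARP, tested only with no filter on dim probes, gave -0.12 (adjusted p = 0.897). Left-out arrays moved HEY1 between 0.55 and 1.12, LFNG between 0.55 and 0.93, JAG2 between -0.37 and -0.12 and RBPJ between -0.308 and -0.027. A left-out array leaves 1 sample in its group, which is assumed to vary like the other group.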
